A study of Mus musculus with 84 samples.

Results

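The NR4A family consists of 3 orphan nuclear receptors, encoded by Nr4a1 (Nur77), Nr4a2 (Nurr1) and Nr4a3 (Nor1). The 3 genes were taken by symbol from the 55401 gene IDs of the RNA count files, and all 3 were among the 17941 genes with enough counts to be tested. The family was chosen by the counts themselves, because Nr4a1 and Nr4a3 were higher in mice given DOI than in vehicle mice up to the latest time point. The differences from vehicle are therefore given as a description, without a test.

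NR4A receptors have a ligand-binding domain whose pocket is filled by bulky side chains, so they are regarded as receptors that act without a classical ligand and are controlled mainly by how much of them is made. They bind as monomers to the NBRE element and as dimers to related elements, and Nr4a1 and Nr4a2 also pair with retinoid X receptors. In neurons their genes are immediate early genes, transcribed within minutes of activity or cyclic AMP signalling through CREB, MEF2 and SRF, and they are linked to long-term memory. Nr4a2 is in addition expressed constitutively in a few neuron types, among them midbrain dopamine neurons, claustrum and deep cortical layers.

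RNA came from NeuN+ nuclei sorted from the frontal cortex of 129S6/SvEvTac mice aged 12 weeks. NeuN is a neuronal nuclear protein, so the sort enriches neurons, and the RNA is nuclear rather than whole-cell RNA. One group received vehicle, and the other groups received an injection of DOI (2,5-dimethoxy-4-iodoamphetamine), a psychedelic agonist of serotonin 2A receptors, and were sampled 24 h, 48 h or 7 days later. Each group had 4 mice with RNA, and each mouse had 2 libraries, whose counts were summed. The labels used here give neither the dose nor the sex of the mice, and the 52 H3K27ac and input samples of the study were not analysed here.

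Several mice stood apart or carried mixed labels. Each vehicle mouse had 9151680 to 11517452 counts in total, each 24 h mouse 6441396 to 8090559, each 48 h mouse 5834248 to 7344355 and each 7 days mouse 6972577 to 12354785. Sets of 8 markers per cell type summed to 1738 to 3241 CPM for GABAergic neurons, 461 to 2423 for glutamatergic neurons, 124 to 347 for astrocytes, 175 to 394 for oligodendrocytes, 78.4 to 202 for microglia and 1.79 to 26.7 for endothelial cells. On the first principal component of log2 CPM (counts scaled to a common normalised library size), 7 days mice 1 and 3 lay among the vehicle mice (-87.5 and -82.9, vehicle -94.6 to -69.0), whereas 7 days mice 2 and 4 lay among the 24 h and 48 h mice (52.1 and 64.8, against 22.0 to 66.2). The 48 h mouse 1 stood alone on the second component (115, the others -42.0 to 7.07) and had the fewest detected genes, 21266. The file headers named the same group but another animal number than the labels for mouse 1 of the 24 h group and for mouse 2 of both the 48 h and the 7 days group. Without these 3 mice the log2 fold changes from vehicle at 24 h, 48 h and 7 days were 2.71, 2.29 and 1.60 for Nr4a1, -0.06, 0.27 and 1.75 for Nr4a2, and 2.02, 1.76 and 1.31 for Nr4a3.

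The start regions of the 3 genes are shown because the members respond to a common signalling route in neurons. Each sequence holds the 250 bases before a RefSeq transcript start (build GRCm38.p6), 5′ to 3′ on the strand of the gene, and capitals mark the half-site of the cyclic AMP response element, TGACG or its reverse complement CGTCA. Nr4a1 is read from chr15:101266596-101266845 on the plus strand, Nr4a2 from chr2:57124004-57124253 on the minus strand and Nr4a3 from chr4:48045055-48045304 on the plus strand. The windows of Nr4a1 and Nr4a3 lie wholly or partly inside the gene as the count files annotate it, since other transcripts begin further upstream.
Nr4a1: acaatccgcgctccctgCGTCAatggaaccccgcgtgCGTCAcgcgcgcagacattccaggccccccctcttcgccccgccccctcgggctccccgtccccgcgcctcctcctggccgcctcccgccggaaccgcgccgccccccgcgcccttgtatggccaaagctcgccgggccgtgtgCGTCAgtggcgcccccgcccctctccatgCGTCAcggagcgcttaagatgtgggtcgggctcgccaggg
Nr4a2: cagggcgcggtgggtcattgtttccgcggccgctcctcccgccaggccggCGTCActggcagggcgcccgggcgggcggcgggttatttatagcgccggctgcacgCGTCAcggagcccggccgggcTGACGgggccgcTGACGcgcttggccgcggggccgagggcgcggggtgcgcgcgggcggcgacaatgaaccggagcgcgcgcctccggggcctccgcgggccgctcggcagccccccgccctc
Nr4a3: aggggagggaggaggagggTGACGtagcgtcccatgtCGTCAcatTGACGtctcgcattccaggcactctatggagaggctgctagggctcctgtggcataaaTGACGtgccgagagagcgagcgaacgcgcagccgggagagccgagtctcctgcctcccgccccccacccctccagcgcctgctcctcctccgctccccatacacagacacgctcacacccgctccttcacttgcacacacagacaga

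Each of the 3 start regions held 4 half-sites. Of 32851 start regions of the same length in the RefSeq table, 17.8% held at least 1 half-site on either strand and 0.137% held at least 4. In Nr4a3 the matches began 231, 213, 205 and 147 bases before the start, in Nr4a1 233, 213, 69 and 40, and in Nr4a2 200, 144, 123 and 111. The whole element TGACGTCA, which contains the half-site on both strands, was in none of the 3 and in 1.55% of all start regions. The NBRE that the receptors themselves bind, AAAGGTCA on either strand, was in none of the 3 (1.34% of all). The CArG box of SRF was searched as CC, 6 bases of A or T and GG (1.47% of all). The MEF2 site was searched as CTA, 4 bases of A or T and TAG (0.508% of all). Neither strict pattern was in any of the 3, and looser forms were not searched. The Nr4a2 window holds TTATTTATAG, which differs from this MEF2 pattern only in its first base. GC content was 74.4% for Nr4a1, 80.0% for Nr4a2 and 63.6% for Nr4a3, against a median of 52.4% over all entries. These are letter matches in 1 window per gene and no binding was measured.

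Nr4a1 (ENSMUSG00000023034) lies on chromosome 15, 101254269 to 101274795 on the plus strand, with 3509 bases of exon. In the vehicle mice 1 to 4 it was at 5.10, 6.25, 17.1 and 4.77 CPM. At 24 h it was at 25.9, 43.5, 54.1 and 65.5 CPM and at 48 h at 49.5, 28.1, 28.5 and 44.0 CPM. Every mouse at these times was above every vehicle mouse, including vehicle mouse 3, which was far above the other vehicle mice. That all 4 mice lay above all 4 vehicle mice held for 18.5% of tested genes at 24 h and 19.2% at 48 h, and since this contrast chose the gene, nothing is read from it. At 7 days the values were 12.6, 49.6, 10.7 and 52.6 CPM. Mice 2 and 4 were at the level of the earlier times, while mice 1 and 3 were below vehicle mouse 3 and above the other vehicle mice.

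Nr4a1 averaged 8.30 ± 5.89 CPM in the vehicle group, 47.2 ± 16.8 in the 24 h group, 37.5 ± 10.9 in the 48 h group and 31.4 ± 22.8 in the 7 days group (SD, n = 4 each). Its log2 fold change from vehicle was 2.51 ± 0.51 (SE) at 24 h, 2.17 ± 0.51 at 48 h and 1.91 ± 0.51 at 7 days. These 3 comparisons share the same vehicle mice. Leaving out any 1 mouse gave a range of 2.30 to 3.13 for the first of these, 1.98 to 2.81 for the next and 1.56 to 2.55 for the last, with the highest values reached without vehicle mouse 3.

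Nr4a3 (ENSMUSG00000028341, chromosome 4, 48045153 to 48086447, plus strand, 5987 bases of exon) had the lowest group means of the 3, although it was above Nr4a2 in CPM in vehicle mouse 1, 24 h mice 2 and 4 and 48 h mouse 1. It was at 4.15, 2.50, 2.95 and 1.85 CPM in vehicle mice 1 to 4, and at 3.96, 13.2, 8.11 and 13.6 CPM at 24 h. The 24 h mouse 1 lay below vehicle mouse 1, and the other 3 mice lay above all vehicle mice. At 48 h the values were 10.7, 6.03, 11.0 and 7.58 CPM, and at 7 days 6.35, 13.1, 4.44 and 10.6 CPM. All mice of both later groups were above all vehicle mice, which held for 19.2% of tested genes at 48 h and for 2.81% at 7 days. As for Nr4a1, the 7 days mice 2 and 4 had the higher values and mice 1 and 3 the lower ones. The log2 fold change from vehicle was 1.76 ± 0.43 (SE) at 24 h, 1.62 ± 0.43 at 48 h and 1.58 ± 0.43 at 7 days. Its counts were small, 19 to 117 per mouse, well above the 3 counts taken as the limit of detection (0.254 to 0.502 CPM over the mice).

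Nr4a2 (ENSMUSG00000026826, chromosome 2, 57106830 to 57124003, minus strand, 4059 bases of exon) varied widely between the mice of a group, except at 7 days. In vehicle mice 1 to 4 it was at 2.17, 43.4, 28.7 and 30.7 CPM, a 20.0-fold range. At 24 h it was at 65.3, 6.25, 58.2 and 10.7 CPM, and at 48 h at 7.68, 107, 33.1 and 54.1 CPM. Thus 4 mice, vehicle mouse 1, 24 h mice 2 and 4 and 48 h mouse 1, were at 10.7 CPM or below, and all other mice of these groups were at 28.7 CPM or above. At 7 days the values were 87.3, 83.1, 97.4 and 78.8 CPM, a 1.24-fold range. Every mouse at 7 days was above every vehicle mouse and every 24 h mouse, while 48 h mouse 2 was higher than any of them. Such a separation upward held for 2.81% of tested genes against vehicle and 2.41% against 24 h, and nothing is read from the former. The log2 fold change from vehicle was 0.42 ± 0.74 (SE) at 24 h, 0.94 ± 0.74 at 48 h and 1.73 ± 0.75 at 7 days. Its 24 h value was -0.05 without 24 h mouse 1, 0.03 without vehicle mouse 1 and 0.05 without 24 h mouse 3, and its direction rests on single mice. The 48 h value was 0.28 without 48 h mouse 2 and 1.29 without 48 h mouse 1.

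The 2 libraries of each mouse gave similar levels. The median ratio of the higher to the lower library was 1.23 for Nr4a1, 1.08 for Nr4a2 and 1.27 for Nr4a3, and the largest was 1.85, 2.25 and 1.75. The range over the 16 mice was 13.7-fold for Nr4a1, 49.3-fold for Nr4a2 and 7.36-fold for Nr4a3. In vehicle mouse 1, where Nr4a2 was lowest, its libraries held 16 and 7 counts, and in 7 days mouse 3 they held 381 and 453. Low and high Nr4a2 was thus seen in both libraries of a mouse. No annotated gene of the count files overlaps any of the 3.

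**Figure D1:**
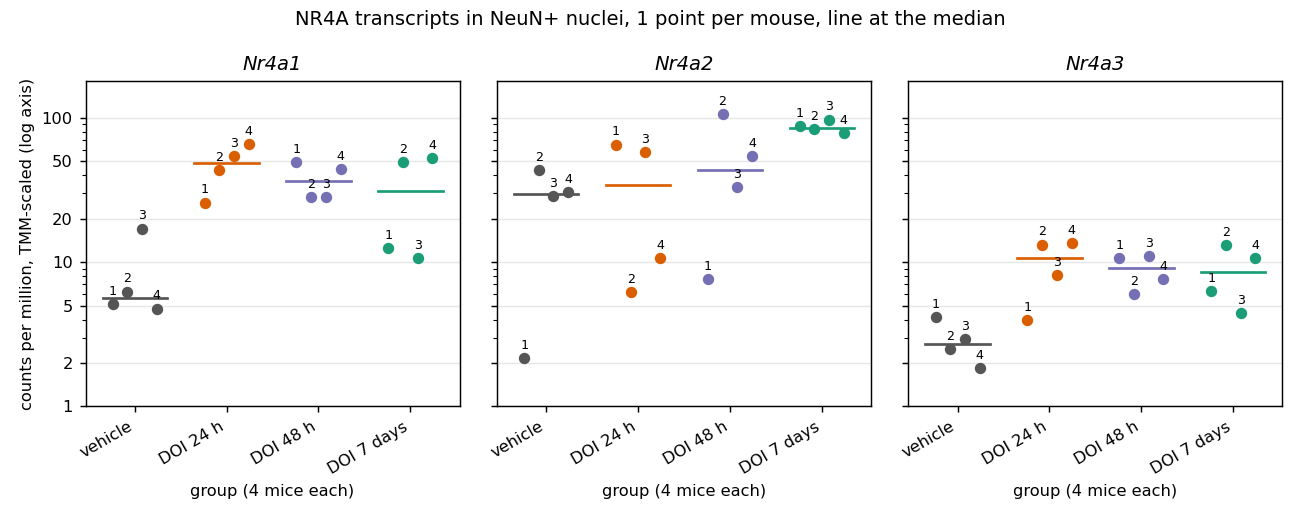
Level of each member by mouse in CPM on a log axis, for vehicle and the 3 DOI times, with the mouse number at each point and a line at the group median. The Nr4a1 points at 24 h and 48 h (25.9 to 65.5 CPM) lie above all vehicle points, Nr4a2 spans 2.17 to 107 CPM before 7 days and 78.8 to 97.4 CPM at 7 days, and Nr4a3 reaches 13.6 CPM at most.

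To compare the members with each other, levels were divided by exon length. In vehicle mice the order was Nr4a2, Nr4a1, Nr4a3, at 6.46 ± 4.27, 2.37 ± 1.68 and 0.478 ± 0.162 CPM per kilobase (SD, n = 4). Nr4a1 was above Nr4a3 in 4 of 4 vehicle mice, by a mean log2 ratio of 2.15 ± 0.92 (SD). Nr4a2 was above Nr4a3 in 3 of 4, by 3.19 ± 2.41, and Nr4a1 was above Nr4a2 in 1 of 4, with a mean log2 ratio of -1.04 ± 1.90. In a two-sided exact sign-flip permutation test the p-values were 0.125, 0.25 and 0.375, each 0.375 after adjustment over the 3 pairs, and 4 mice cannot give a p below 0.125. With so few mice the test could not have passed the threshold for any pair, so it neither separates nor equates neighbours in this order. At 7 days Nr4a2 was the highest member in all 4 mice, with 53.6% to 86.3% of the sum of the 3, and at 24 h its share ran from 9.54% to 66.7%. Nr4a3 made up 2.67% to 25.9% of the sum over all mice.

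The sum of the 3 members per exon length was 2.68, 12.9, 12.4 and 9.22 CPM per kilobase in the vehicle mice. The 24 h mice had 16.1 to 31.1, the 48 h mice 17.8 to 35.4 and the 7 days mice 26.2 to 36.8. The member that carried the sum differed between mice. The sum holds the values that chose the family, so nothing is read from its difference between DOI and vehicle mice. In 24 h mouse 4 and 48 h mouse 1, Nr4a1 made up 79.2% and 79.3% of the sum, whereas in 7 days mice 1 and 3 Nr4a2 made up 82.2% and 86.3%.

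**Figure D2:**
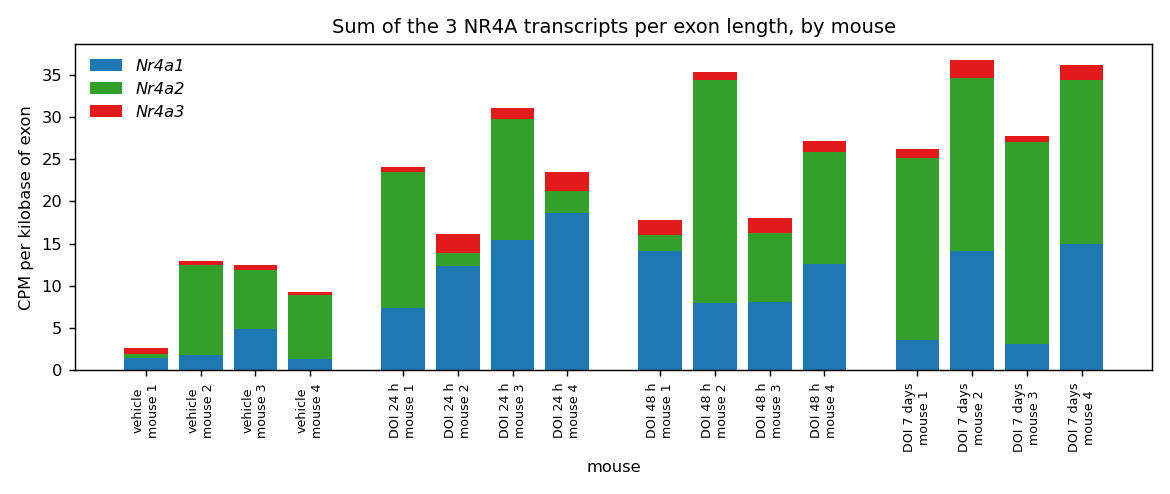
Stacked bars of Nr4a1, Nr4a2 and Nr4a3 in CPM per kilobase of exon for each of the 16 mice. The totals run from 2.68 to 12.9 in vehicle and from 16.1 to 36.8 in DOI mice, values that chose the family, and the green Nr4a2 segment is small in 24 h mice 2 and 4 and in 48 h mouse 1.

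The comparisons between DOI times ask whether the level changed between 24 h and 7 days. The rule did not use these contrasts, but it took Nr4a1 and Nr4a3 for being high up to 7 days, which favours small differences between times, so nothing is read from the lack of a call for these 2 genes. None of the 9 comparisons passed the quasi-likelihood test of edgeR after adjustment over all genes by the Benjamini-Hochberg method. Few genes did in these contrasts: 0 of 17941 between 24 h and 48 h, 0 between 48 h and 7 days, and 1 (0.00557%) between 24 h and 7 days. At an unadjusted p below 0.05 there were 338 (1.88%), 2959 (16.5%) and 2555 (14.2%) genes, and none of the members was among them.

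For Nr4a1 the log2 difference was -0.33 from 24 h to 48 h (95% interval -1.34 to 0.68, adjusted p = 1.0), -0.26 from 48 h to 7 days (-1.27 to 0.75, adjusted p = 0.812) and -0.59 from 24 h to 7 days (-1.60 to 0.42, adjusted p = 0.605). For Nr4a3 the differences were smaller, at -0.14 (-1.01 to 0.72, adjusted p = 1.0), -0.03 (-0.90 to 0.83, adjusted p = 0.976) and -0.18 (-1.04 to 0.68, adjusted p = 0.878). Each interval includes both a fall and a rise, so the levels were not shown to be equal. Without 7 days mouse 1 or 7 days mouse 3, the Nr4a1 difference from 48 h to 7 days was 0.01 and 0.03.

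Nr4a2 showed the largest difference between times of the 3 members. It was 0.52 higher at 48 h than at 24 h (-1.03 to 2.07, adjusted p = 1.0) and 0.78 higher at 7 days than at 48 h (-0.76 to 2.32, adjusted p = 0.604). From 24 h to 7 days it was 1.30 higher (-0.26 to 2.86, unadjusted p = 0.0962, adjusted p = 0.442), with 4 of 4 mice at 7 days above all mice at 24 h. Such a separation upward was found for 2.41% of tested genes. This last comparison passed the threshold with no filter on low counts (1.33, adjusted p = 0.0269) and with limma voom on the 32 libraries (1.89, adjusted p = 0.0323). Over its 19 alternatives the adjusted p ran from 0.0269 to 0.691.

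**Figure D3:**
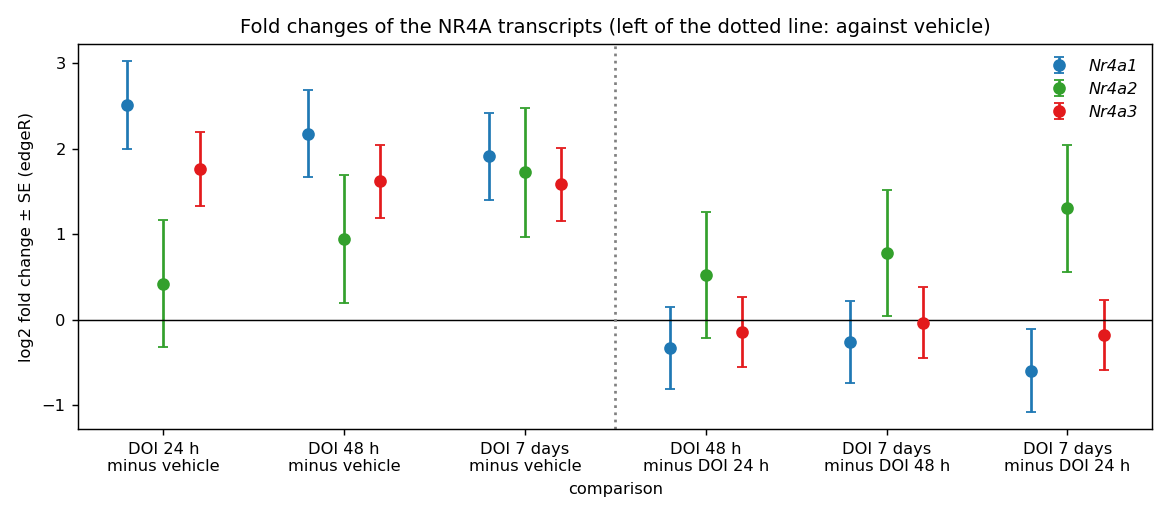
Log2 fold changes of the 3 members with their standard errors, against vehicle on the left of the dotted line and between DOI times on the right. Nr4a1 and Nr4a3 lie between 1.58 and 2.51 at every time against vehicle, whereas Nr4a2 goes from 0.42 at 24 h to 1.73 at 7 days.

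Genes that surround the members on the chromosome were measured as well. The nearest tested genes were Grasp and Atg101 for Nr4a1, Kcnj3 and Gpd2 for Nr4a2, and Sec61b and Stx17 for Nr4a3, at distances of 9477 to 1508685 bases. None of the 6 passed the test at any time against vehicle. Their log2 fold changes from vehicle lay between -0.60 (Gpd2 at 24 h, adjusted p = 0.0977) and 0.43 (Sec61b at 24 h, adjusted p = 0.240).

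Other genes followed the members across mice to different degrees. The correlations that follow are of log2 CPM over the 16 mice, which share the groups, the depth and the libraries, and they are descriptions without a test. Nr4a1 and Nr4a3 had an r of 0.85 with each other, and 0.64 after the group means were removed. Nr4a2 had an r of 0.10 with Nr4a1 and -0.11 with Nr4a3, the latter -0.68 after the group means were removed. Among 11160 genes whose log2 CPM averaged 2 or more, the genes most like Nr4a1 were Slx4 (0.95), a scaffold of DNA repair nucleases, Mrtfb (0.94), a co-activator of SRF, Arid1a (0.94), a subunit of the BAF chromatin remodelling complex, Tmem121b (0.94) and the sialyltransferase St3gal1 (0.94). The genes most like Nr4a3 were Rpl8 (0.93) and Rpl10 (0.92), which encode ribosomal proteins, Erp29 (0.92), an endoplasmic reticulum protein, Cox4i1 (0.92), a cytochrome oxidase subunit, and again St3gal1 (0.92). An r of at least 0.9 was reached by 65 genes for Nr4a1, 10 for Nr4a3 and 0 for Nr4a2.

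The genes most like Nr4a2 were Col11a1 (0.87), a fibrillar collagen, the small nucleolar RNA Snora31 (0.87), Kansl3 (0.80), a subunit of a histone acetyltransferase complex, Coch (0.79), which encodes the extracellular protein cochlin, and the collagen Col24a1 (0.79). Col11a1 ranged from 13.3 to 109 CPM in the vehicle mice, from 14.3 to 75.5 in the 24 h mice, from 8.55 to 101 in the 48 h mice and from 92.6 to 203 in the 7 days mice. Like Nr4a2, it was widely spread among mice before 7 days and high in all 4 mice at 7 days.

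Since Nr4a2 marks claustrum and layer 6b neurons, 10 markers of these cells were read beside it. They summed to 548 to 935 CPM in the vehicle mice, 306 to 571 in the 24 h mice, 372 to 568 in the 48 h mice and 508 to 869 in the 7 days mice. Synpr, which other neurons also express, made up 45.0% to 85.4% of the sum. Without Synpr, a choice made after seeing the data, the other 9 markers summed to 137, 185, 157 and 153 CPM in vehicle mice 1 to 4, to 196, 117, 153 and 94.2 at 24 h, to 78.7, 236, 126 and 174 at 48 h, and to 240, 272, 232 and 208 at 7 days. This sum was lowest in its group in vehicle mouse 1, 24 h mouse 4 and 48 h mouse 1, which had low Nr4a2, and 24 h mouse 2 was next. At 7 days all 4 mice were above all vehicle and 24 h mice in it. Single markers had an r to Nr4a2 from -0.22 to 0.78 over the 9 tested (median 0.47), with Cplx3 (-0.22), Synpr (-0.22) and Nr2f2 (-0.0015) the lowest. The closest was Gnb4, at 69.1, 85.2, 82.6 and 72.6 CPM in vehicle, 93.2, 49.6, 73.3 and 43.1 at 24 h, 45.3, 115, 58.6 and 84.3 at 48 h, and 116, 128, 139 and 96.3 at 7 days. Gnb4 was low in the 24 h and 48 h mice with low Nr4a2 and high at 7 days, but in vehicle mouse 1 it was close to the other vehicle mice. Oprk1, the kappa opioid receptor, was at 22.8, 28.7, 24.9 and 27.7 CPM in vehicle, 67.8, 18.0, 34.0 and 15.7 at 24 h, 2.32, 60.9, 31.3 and 29.9 at 48 h, and 43.6, 87.0, 45.4 and 67.7 at 7 days. It too was low in the 24 h and 48 h mice with low Nr4a2, and in vehicle mouse 1 close to the other vehicle mice. Both genes were singled out after their values were seen. The layer 6b marker Nxph4 was at 0 in 10 of the 16 mice and at most 0.665 CPM in the others. The part of these cell types in the Nr4a2 values was not tested, and in bulk nuclei fewer cells of a type and less RNA per cell cannot be told apart.

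Markers of the striatum, which borders the frontal cortex, also differed between the mice. The sum of 10 markers of striatal projection neurons was 388 to 474 CPM in vehicle, 302 to 375 at 24 h and 389 to 755 at 48 h. At 7 days it was 748, 2101, 471 and 1562 CPM in mice 1 to 4, highest in mice 2 and 4, which also had the high Nr4a1 and Nr4a3 values. At 24 h the sum was below that of every vehicle mouse, but its members differed: Drd1, a dopamine receptor, was at 14.1 to 29.0 CPM against 35.4 to 45.8 in vehicle, whereas Rgs9, a regulator of G protein signalling, was at 8.53 to 20.4 against 4.78 to 8.25. The r of the 9 tested markers to Nr4a1 ran from -0.41 to 0.61 (median 0.17), with Rgs9 the highest, and that of Rgs9 to Nr4a3 was 0.63. The defining markers Drd2 and Adora2a were at most 15.5 and 6.39 CPM, both in 7 days mouse 2. The part of striatal neurons in the Nr4a1 and Nr4a3 values was not tested.

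Nr4a1 also moved with 3 other measures of the mice. The sum of 8 glutamatergic neuron markers was 510 to 564 CPM in vehicle, 979 to 2423 at 24 h and 1477 to 2219 at 48 h, and 517, 1406, 461 and 1270 in 7 days mice 1 to 4. Camk2a, a kinase subunit of excitatory neurons, made this difference, at 151 to 222 CPM in vehicle, 622 to 2126 at 24 h and 1167 to 1876 at 48 h (r to Nr4a1 0.88). Slc17a7, the vesicular glutamate transporter, went the other way, at 129 to 171, 57.7 to 110 and 62.9 to 93.5 CPM (r -0.77), and the median r of the 8 markers was 0.12. The 18S ribosomal RNA pseudogene Rn18s-rs5 was at 72.3 to 110 CPM in vehicle, 3258 to 15064 at 24 h and 5107 to 16124 at 48 h, and at 87.3, 6171, 63.4 and 4622 CPM at 7 days. Mitochondrial genes took 0.0171% to 0.0701% of counts in vehicle, 0.0621% to 0.101% at 24 h and 0.108% to 0.268% at 48 h, and 0.0413%, 0.130%, 0.0210% and 0.114% in 7 days mice 1 to 4. In all 3 measures, 7 days mice 1 and 3 were at or near vehicle level and mice 2 and 4 above it, the split also seen for Nr4a1 and Nr4a3. Nr4a2, at 87.3 and 97.4 CPM in those mice, did not follow this split. The part of these measures in the Nr4a1 and Nr4a3 values was not tested.

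**Figure D4:**
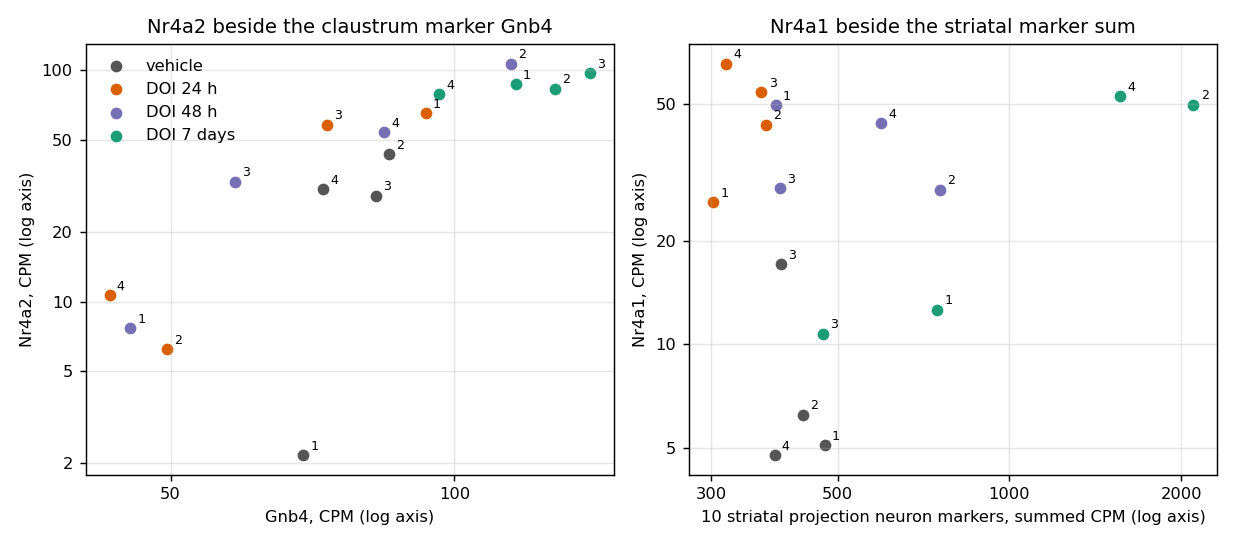
Left, Nr4a2 against the claustrum marker Gnb4; right, Nr4a1 against the summed level of 10 striatal projection neuron markers, both in CPM on log axes with 1 numbered point per mouse. The mice with low Nr4a2 at 24 h and 48 h have Gnb4 at 43.1 to 49.6 CPM, whereas vehicle mouse 1, with the lowest Nr4a2, has 69.1 CPM. Gnb4 was the closest to Nr4a2 of 9 tested markers and was singled out after its values were seen. The 24 h mice have Nr4a1 at 25.9 to 65.5 CPM with striatal sums of 302 to 375 CPM.

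The transcription factors and co-activators that drive NR4A genes were read next, from a list of 16. At 24 h, 4 of the 16 rose and 0 fell, and at 48 h 6 rose and 0 fell, beside 24.2% of all tested genes called at 24 h (13.8% higher, 10.4% lower) and 30.1% at 48 h (16.8% higher, 13.3% lower). The list median was a log2 fold change of 0.50 at 24 h and 0.54 at 48 h, against 0.03 and 0.02 over all genes. The strongest was Crtc1, a calcium- and cyclic AMP-regulated co-activator of CREB, which went from 46.3 to 55.0 CPM in vehicle to 97.9 to 209 at 24 h (log2 fold change 1.76 ± 0.27 SE, adjusted p = 0.00159 by edgeR) and to 112 to 182 at 48 h. Mrtfb rose by 0.90 and 0.99, the acetyltransferase Ep300 by 0.78 and 0.89, and the ternary complex factor Elk4 by 0.73 and 0.77 on the log2 scale at 24 h and 48 h. At 48 h the co-activators Crtc3 (0.90) and Crebbp (0.55) were also called. Creb1, Mef2c and Srf were not called: Creb1 was at 0.02 and -0.03, Mef2c at -0.34 and -0.46, and Srf at 0.55 and 0.59 on the log2 scale. Crtc1, Mrtfb and Ep300 were called at both times in all 8 fits that left out 1 vehicle or DOI mouse, whereas Elk4 was called in 2 of 8 at 24 h and 3 of 8 at 48 h, and Crtc3 and Crebbp in 3 of 8 at 48 h.

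Of 14 kinase genes upstream of the family, 1 rose and 3 fell at 24 h, and 2 rose and 3 fell at 48 h, or 28.6% and 35.7%, against 24.2% and 30.1% of all genes. Rps6ka1, which encodes a ribosomal S6 kinase that phosphorylates CREB and Nr4a1, fell from 29.1 to 35.4 CPM in vehicle to 4.11 to 8.78 at 24 h (log2 fold change -2.30 ± 0.64 SE, adjusted p = 0.0168 by edgeR) and to 1.30 to 7.70 at 48 h. Prkar2b, a regulatory subunit of protein kinase A, fell by 0.81 and 0.74 on the log2 scale at 24 h and 48 h. Another regulatory subunit, Prkar2a, rose by 0.83 and 0.63, and the catalytic subunit Prkaca rose by 0.96 at 48 h. The list median was -0.20 at 24 h and 0.04 at 48 h. With 1 mouse left out, Rps6ka1 lost its call only at 24 h without 24 h mouse 4, whereas at 48 h Prkar2a and Prkaca were each called in 1 of 8 fits.

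Among 18 dimer partners and coregulators, 1 rose and 1 fell at 24 h, and 2 rose and 3 fell at 48 h, or 11.1% and 27.8%, against 24.2% and 30.1% of all genes. The corepressor Ncor1 fell from 396 to 428 CPM in vehicle to 181 to 288 at 24 h (-0.86 ± 0.20 SE, adjusted p = 0.00725 by edgeR) and 218 to 265 at 48 h. Rxra, a dimer partner, was at -0.04 at 24 h (adjusted p = 0.943) and rose at 48 h (1.02, adjusted p = 0.0299). Kdm1a, a histone demethylase, fell at 48 h (-0.59). Ncor1 was called in all 8 fits with 1 mouse left out at both times, Rxra in 2 of 8 and Kdm1a in 1 of 8. Rxrg, which is expressed in striatal neurons, was at 3.93 to 11.5 CPM in vehicle and 7.59 to 30.0 at 7 days (1.49, adjusted p = 0.144).

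Of 15 genes described as NR4A targets in neurons, 12 could be tested; 1 rose at 24 h and 0 passed at 48 h in either direction, where 1 had an unadjusted p below 0.05 (24.2% and 30.1% of all genes were called). Fosl2, an AP-1 subunit, rose at 24 h (1.45 ± 0.41 SE, adjusted p = 0.0168 by edgeR), from 3.05 to 4.15 CPM to 6.85 to 10.4. Bdnf, the neurotrophin, was at 0.36 and -0.32 at 24 h and 48 h, with adjusted p-values of 0.471 and 0.507. Other members had wide errors, such as Vip, a neuropeptide, at 0.77 ± 0.38 (SE) and Th, tyrosine hydroxylase, at -0.71 ± 0.53 at 24 h. Endoplasmic reticulum chaperones, which have been described as NR4A-dependent in hippocampal memory, were a list of 14, of which 6 fell and 0 rose at 24 h, and 7 fell and 0 rose at 48 h. Of all genes, 10.4% and 13.3% were called lower at these times. The list median was -0.71 and -0.81. Members that did not pass included Canx, calnexin, at 0.45 and 0.40, and Manf at 0.08 and 0.18. Hspa5 (BiP) went from 639 to 1175 CPM in vehicle to 173 to 501 at 24 h (-1.18 ± 0.33 SE, adjusted p = 0.0173 by edgeR) and 217 to 435 at 48 h, and Hyou1, another chaperone, and Xbp1, a transcription factor of the unfolded protein response, fell by 1.47 and 1.14 at 24 h and by 1.88 and 1.27 at 48 h on the log2 scale. The disulfide isomerase Pdia3 fell by 1.31 at 48 h. With 1 mouse left out, Xbp1 was called in all 8 fits at both times, Hspa5 in 6 of 8 at 24 h and 7 of 8 at 48 h, and Hyou1 in 2 of 8 at 24 h. At 24 h the chaperone count dropped to 1 without vehicle mouse 1 or without 24 h mouse 4, to 2 without 24 h mouse 1, and to 3 without vehicle mouse 3 or 4. At 48 h it was 3 without vehicle mouse 1 and 4 without 48 h mouse 2 or 3.

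The 5 lists together held 77 genes, 74 of them tested. At 24 h 17 (7 higher and 10 lower) and at 48 h 23 (10 higher and 13 lower) were called, 23.0% and 31.1%, close to the 24.2% and 30.1% of all tested genes. The count at 24 h was 11 without vehicle mouse 1 and 10 without 24 h mouse 4. At 48 h it was 12 without vehicle mouse 1, 14 without vehicle mouse 2 and 13 without 48 h mouse 2 or 3. At 7 days no gene of the 74 was called by edgeR, as was no gene among all 17941 (3012, or 16.8%, had an unadjusted p below 0.05), while DESeq2 called 3 of the listed genes. Without 7 days mouse 1 or 7 days mouse 3 there were 6 calls at 7 days. The share of all genes called in these other fits is not given here, so nothing is read from their counts.

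Other immediate early genes, which activity induces together with the NR4A genes, were read from a list of 30, of which 27 were tested. At 24 h 4 rose and 1 fell, and at 48 h 2 rose and 9 fell, or 18.5% and 40.7% against 24.2% and 30.1% of all genes, with a median of -0.32 and -0.61. At 48 h Arc, a regulator of AMPA receptor trafficking, was at 14.1 to 41.6 CPM against 28.2 to 290 in vehicle (-2.12 ± 0.68 SE, adjusted p = 0.0270 by edgeR). Without vehicle mouse 3 this was -0.66 (adjusted p = 0.353), and the call was also lost without 48 h mouse 1, 2 or 3. Btg2, an antiproliferative gene (-1.99), Ier2 (-1.89), the MAP kinase phosphatase genes Dusp1 (-1.58) and Dusp6 (-1.07), Klf10 (-1.32), Nfil3 (-1.17), Jun (-0.79) and Inhba (-0.77) also fell. Of these, Btg2, Dusp1 and Klf10 were called in all 8 fits with 1 mouse left out, Inhba in 7, Dusp6 in 4, Ier2 and Jun in 1 and Nfil3 in 0. Fos was at -0.56 and -1.90, Egr1 at -0.0018 and -0.12 and Npas4 at 1.04 and 1.44 at 24 h and 48 h, none past the threshold.

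Beside the 4 of 27 immediate early genes that rose at 24 h and the 2 at 48 h, 13.8% and 16.8% of all genes were called higher. The 4 at 24 h include Fosl2, the same gene that was counted among the NR4A targets above. Per1, a clock gene with a cyclic AMP response element, went from 6.23 to 11.8 CPM in vehicle to 28.7 to 47.2 at 24 h (1.92 ± 0.32 SE, adjusted p = 0.00196 by edgeR) and 23.1 to 48.4 at 48 h. Sik1, a salt-inducible kinase that restrains CREB co-activators, was called at both times but had at most 3 counts in each vehicle mouse (0.0944 to 0.341 CPM), against 0.305 to 2.41 CPM at 24 h and 1.19 to 9.27 at 48 h, so no fold is given. Csrnp1 was called at 24 h at 0.457 to 2.13 CPM, against 0.189 to 0.569 in vehicle, also close to the limit of detection. Per1 was called in all 8 fits with 1 mouse left out at both times, Sik1 in 1 of 8 at 24 h and Csrnp1 in 2 of 8. At 24 h the number called was 2 without vehicle mouse 1 or without 24 h mouse 2, and 3 without 24 h mouse 3 or 4. At 48 h it was 7 without any single vehicle mouse of 1, 2 and 3, and 6 without 48 h mouse 3.

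The rest of the nuclear receptor superfamily served for comparison. Of 46 listed receptors 30 were tested, and 4 rose and 0 fell at 24 h, and 5 rose and 4 fell at 48 h, or 13.3% and 30.0% against 24.2% and 30.1% of all genes, with medians of -0.04 and 0.09. Nr1d1 (Rev-erb alpha), a clock repressor, rose from 12.7 to 16.7 CPM to 19.2 to 67.5 at 24 h (1.68 ± 0.33 SE, adjusted p = 0.00337 by edgeR) and 34.8 to 79.5 at 48 h. The thyroid hormone receptor Thra rose by 0.75 and 0.80, Nr2f1 (COUP-TF1) by 0.56 at 24 h, and Pgr, the progesterone receptor, by 1.01 at 48 h. Rara, a retinoic acid receptor, was called at both times at levels near the limit of detection, 0.292 to 0.755 CPM in vehicle and 0.609 to 3.08 at 24 h. The falls at 48 h were Nr2c1 (-1.08), Esrra, an oestrogen-related receptor (8.69 to 18.7 CPM against 23.8 to 26.9), Pparg (-0.79) and Nr2e1, which was at 0.584 to 2.39 CPM in vehicle and at most 0.445 at 48 h. The glucocorticoid receptor Nr3c1 (-0.30 and -0.18) and Rorb (0.25 and 0.13) were not called. Nr1d1 and Thra at both times and Nr2c1 at 48 h were called in all 8 fits with 1 mouse left out, Rara at 24 h in 4 of 8, Nr2f1, Pgr, Esrra and Nr2e1 in 2 of 8 and Pparg in 1 of 8. The count at 24 h was 2 without vehicle mouse 3, vehicle mouse 4 or 24 h mouse 2, and that at 48 h was 4 without vehicle mouse 2 or 48 h mouse 4 and 5 without vehicle mouse 1 or 3.

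**Figure D5:**
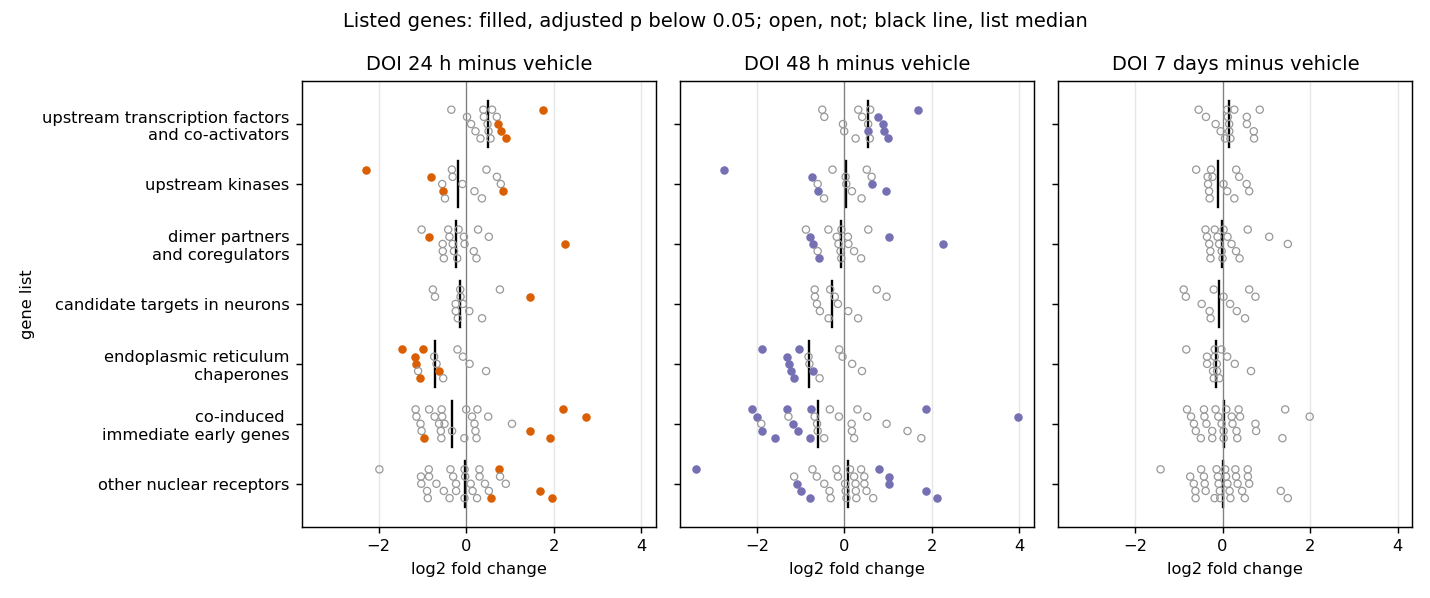
Log2 fold changes against vehicle of the tested genes of the 7 lists, 1 point per gene, filled where the adjusted p was below 0.05, with a black line at the list median. Chaperones lie mostly to the left at 24 h and 48 h (medians -0.71 and -0.81), and the upstream factors and co-activators lie mostly to the right (0.50 and 0.54). Of the latter, Creb1 (0.02 and -0.03) and Mef2c (-0.34 and -0.46) were not called. No point is filled at 7 days.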

How the data were processed

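The deposited values used here are raw counts per gene and library in 32 files. Per the file headers, the authors counted reads with featureCounts v2.0.0 over exons of Ensembl genes (GRCm38) and set no strand option, so reads of an antisense transcript count toward the gene it overlaps. No option for multi-mapping reads or reads on overlapping genes appears in the recorded command. The aligner of the RNA reads is not given in the sources used here. Library totals were 2763704 to 7436451 counts; reads had no molecular identifiers, so the limit of 3 counts covers counting error only.

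The mouse was the replicate: its 2 libraries were added together before any fit. Nothing in the labels says how the 2 libraries were split, so they may be technical. Genes were kept with filterByExpr, scaled by TMM and fitted over the 4 groups with edgeR 4.0.16 (quasi-likelihood test, Benjamini-Hochberg adjustment over 17941 genes, threshold 0.05) in R 4.3.3. CPM are TMM-scaled, log2 CPM has a prior count of 2, and standard errors and 95% intervals derive from the fold change and F statistic. The fit was also run on simulated counts with a dispersion of 0.1 for every gene. That run checks the code and not the spread between these mice. Alternatives used DESeq2 1.42.0, limma 3.58.1, other scaling factors and filters, single libraries, the groups compared alone, the mouse number as a block and, in turn, the omission of single mice. Added once the data had been seen were the fit without the 3 mice with another number in the header, the separate counts of chaperones and immediate early genes, the omission of single mice for each listed gene, and the claustrum marker sum without Synpr.

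The members and gene lists were chosen with earlier results of these data known. Named were the members, the 5 genes most correlated with each (predicted genes with Gm or Rik symbols left out), up to 3 called genes per list, direction and time with the largest change, a few fixed genes of each list (such as Creb1, Bdnf, Hspa5 and Fos) and the chromosomal neighbours; further called genes are named after their values were seen, and a few listed genes are not reported here. RefSeq promoter entries were matched by symbol (3 of 3 members). Same-numbered mice are different animals, so the numbers do not pair them.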

Additional observations from a re-analysis of the deposited data

Results flagged for a closer look

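Nr4a1 in vehicle mouse 3, at 17.1 CPM, lay far above the other 3 vehicle mice, of which the highest was at 6.25 CPM. Both of its libraries showed this, with 96 and 78 counts. The summed claustrum and layer 6b markers in vehicle mouse 1, at 935 CPM, lay far above the other vehicle mice, of which the highest was at 612 CPM. Synpr made up 85.4% of that sum, and without it the other 9 markers were at 137 CPM in vehicle mouse 1, the lowest of the 4 vehicle mice. In each case the gap to the nearest mouse, divided by the range of the group, exceeded Dixon's 95% critical value for 4 samples. Chance alone gives about 1 such value among the 20 combinations of measure and group checked.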

How the results depend on the processing

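With 1 mouse left out, the log2 fold changes of Nr4a2 and Nr4a3 against vehicle moved by less than their SE, though the Nr4a2 value at 24 h changed sign. Those of Nr4a1 moved by more than their SE of 0.51 without vehicle mouse 3. They went from 2.51 to 3.13 at 24 h, from 2.17 to 2.81 at 48 h and from 1.91 to 2.55 at 7 days. In the other alternatives the members moved by less than the spread between mice. Between times, leaving out 1 mouse gave -0.53 to -0.14 for Nr4a1, -0.15 to 1.00 for Nr4a2 and -0.40 to 0.058 for Nr4a3 (48 h against 24 h), -0.62 to 0.031, 0.43 to 1.45 and -0.32 to 0.19 (7 days against 48 h), and -0.95 to -0.30, 0.96 to 1.78 and -0.46 to 0.048 (7 days against 24 h), with no adjusted p below 0.291. With no filter, Nr4a3 from 48 h to 7 days was 0.00802, and Nr4a2 from 24 h to 7 days was 1.33, or 1.89 with voom, both past the threshold. Pathway genes called at 24 h were 26 in a fit of only the groups compared and 27 with voom, and at 7 days 3 with no filter, 3 with DESeq2 and 4 with voom. Other nuclear receptors called were 7 at 24 h in the fit of only the groups compared and with DESeq2, 5 at 48 h with library 2 alone, and 1 at 7 days with no filter or DESeq2. Chaperones called were 3 at 24 h with total counts and 2 without the 3 mice with another header number, and at 7 days 1 with no filter, 1 with DESeq2 and 2 with voom. Immediate early genes called were 8 at 24 h with no filter, 7 at 48 h with library 2 alone, and 1 at 7 days with no filter, DESeq2 or voom. Leaving out 1 mouse gave 10 to 16, 12 to 18 and 0 to 6 pathway genes at 24 h, 48 h and 7 days, 2 to 4, 4 to 6 and 0 to 1 other nuclear receptors, 1 to 6, 3 to 7 and 0 to 1 chaperones, and 2 to 5, 6 to 10 and 0 to 2 immediate early genes. The share of all genes called under each setting is not given here. The list counts of this section, and those above with 1 mouse left out, are therefore not read as changes particular to the lists. The cause of these moves was not tested. With the mouse number as a replicate block, the calls at 48 h were 5 other nuclear receptors and 7 immediate early genes, the chaperones at 24 h were 3, and Nr4a2 from 24 h to 7 days was 1.19. The numbers mark different animals, and same-numbered mice did not deviate together (mean correlation -0.036, range -0.28 to 0.24 over 24 pairs). The order of the members in vehicle mice kept its directions, with mean log2 ratios of -1.87 to -0.52 for Nr4a1 over Nr4a2, 1.77 to 2.51 for Nr4a1 over Nr4a3 and 2.69 to 4.38 for Nr4a2 over Nr4a3. Under scaling by total counts the median gene was at 0.14 on the log2 scale at 24 h, against 0.03. Depth limits genes at or near 3 counts per mouse, such as Sik1, Csrnp1, Rara, Nr2e1, Nxph4 and Adora2a.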
